A study of Mus musculus with 2 samples.

Results

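The microRNA-449 and microRNA-34 (miR-449/34) family was followed through 6 of the 1973 miRNA genes counted in small RNA libraries of embryonic mouse hindbrain. The members are Mir449a, Mir449b and Mir449c of the Cdc20b locus, the Mir34b and Mir34c pair, and the separate gene Mir34a. They were chosen by gene symbol, and each had a row in both deposited tables. The tissue came from B6NCrl embryos of mixed sex at embryonic day 12.5, in pools of 88 embryos for replicate 2 and 120 embryos for replicate 1. Both libraries belong to the same group, with no treated or mutant sample, so the values describe levels and their spread between libraries, not a change between conditions. Pooling averages over embryos, so variation between single embryos was not measured.

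A microRNA (miRNA) is a small RNA cut from a hairpin transcript that lowers the output of messenger RNAs carrying a match to its seed, the bases near its 5′ end. The miR-449/34 family is known for its part in multiciliated cells, such as those of the airway, the oviduct, the ependyma and the choroid plexus of the brain ventricles. In the mouse it represses Ccp110, a centriolar protein that blocks cilium growth, and in human airway cells and frog epidermis it represses the Notch pathway. Genes of the miR-34 branch are also known as direct targets of the tumour suppressor p53, and the miR-449 genes as targets of the cell cycle factor E2F1.

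Members of the family with a listed 5′ arm share its seed, and the sequences below are shown because these genes have very different levels. They are RefSeq sequences on GRCm38.p6, printed 5′ to 3′ with the seed (bases 2 to 8) in capitals. The RefSeq table held hairpins for 5 members and 5′ arms for 4; Mir449b and the 5′ arm of miR-34c had no entry.
miR-449a-5p: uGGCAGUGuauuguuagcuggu
miR-449c-5p: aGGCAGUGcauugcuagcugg
miR-34a-5p: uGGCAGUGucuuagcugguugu
miR-34b-5p: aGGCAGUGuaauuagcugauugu
miR-34b-3p: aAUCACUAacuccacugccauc
miR-34c-3p: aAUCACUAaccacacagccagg

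All 4 listed 5′ arms had the seed GGCAGUG, and no other of the 1738 mature miRNAs in the table had it at that position. The same 7 bases stood once in each of the 5 member hairpins, including that of Mir34c, and anywhere in 17 of the 1005 hairpins listed (1.69%, strand of the hairpin only). Outside the seed the 5′ arms matched in part. Each also held the run uagcug, at positions that differ between some of them, and a count without gaps does not line up shifted runs. Without gaps from base 1, miR-449a-5p matched miR-449c-5p at 18 of 21 bases, miR-34a-5p at 15 of 22 and miR-34b-5p at 10 of 22. The 3′ arms of Mir34b and Mir34c shared a seed of their own and matched at 17 of 22 bases. By contrast, the 3′ arms of Mir449a (AGCUAAC), Mir449c (AGUUGCU) and Mir34a (AUCAGCA) each had another seed. The hairpins of the pair show where the GGCAGUG run, in capitals, lies in each.
Mir34c hairpin: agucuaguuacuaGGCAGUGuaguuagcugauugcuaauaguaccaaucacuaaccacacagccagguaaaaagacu
Mir34b hairpin: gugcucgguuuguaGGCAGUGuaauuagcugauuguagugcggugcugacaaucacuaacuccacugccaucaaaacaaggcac

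The family lies at 3 loci of the GRCm38 assembly. Mir449c (113035983 to 113036091), Mir449b (113037419 to 113037498) and Mir449a (113037534 to 113037624) lie on the plus strand of chromosome 13, in intron 2 of Cdc20b. They span 1642 bases, with 1327 bases between Mir449c and Mir449b and 35 bases between Mir449b and Mir449a. Upstream of Cdc20b on the same strand lie Mcidas, whose product multicilin switches on the multiciliated cell programme, and Ccno, a cyclin needed to make many centrioles. Mcidas ends 34716 bases before the annotated start of Cdc20b, and none of these protein-coding genes was measured in the small RNA libraries. Mir34b (51103562 to 51103645) and Mir34c (51103034 to 51103110) lie on the minus strand of chromosome 9, with 451 bases between them, opposite to intron 1 of Btg4. Mir34a (150068454 to 150068555) lies on the plus strand of chromosome 4 with no host gene in GENCODE M21. Its last 17 bases overlap Gm37795, an annotated transcript of the same strand that awaits experimental evidence.

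**Figure D1:**
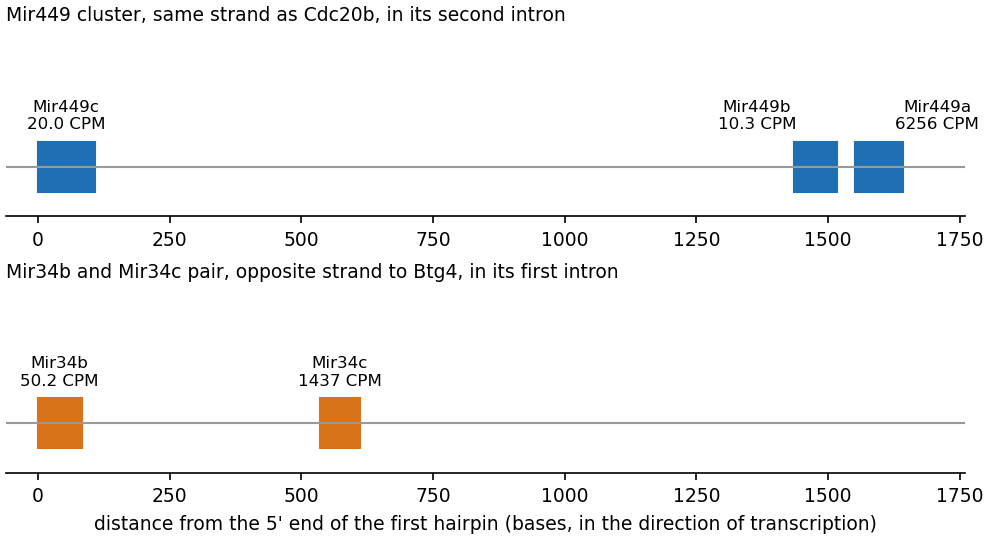
Positions of the hairpins (boxes) in the Mir449 cluster (top) and the Mir34b and Mir34c pair (bottom), against distance in bases from the first hairpin in the direction of transcription; the number over each box is its mean CPM over both libraries. Mir449b and Mir449a lie 35 bases apart, with mean levels of 10.3 and 6256 CPM.

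Levels are given as counts per 1000000 (CPM) of all same-strand miRNA gene counts of a library, which came to 3946444 in replicate 2 and 2764276 in replicate 1. Reads come from small RNA selected by size, about as long as a mature miRNA, so levels were not divided by hairpin length, and both arms of a hairpin are summed. A gene counts as detected with 10 or more counts in each library, which 371 of the 1973 genes (18.8%) reached. Mir10a, a Hox cluster miRNA of the hindbrain and spinal cord, reached 25880 CPM in replicate 2, against 26347 CPM in replicate 1. Counting intervals are exact at the 95% level and cover counting error only.

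All 6 members were detected, and together they held 0.861% of the counts in replicate 2, with an exact Clopper-Pearson interval of 0.852% to 0.870%. In replicate 1 they held 0.710%, with an interval of 0.700% to 0.719%. The Mir449 cluster held most of this, with 81.0% of the family counts in replicate 2 and 78.9% in replicate 1. The Mir34b and Mir34c pair held 18.1% and 19.9% in the same libraries, and Mir34a held 0.883% and 1.14%. In bulk tissue, many cells with little of a miRNA and few cells with much of it cannot be told apart.

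Mir449a dominated its cluster and the family. It had 6929 CPM in replicate 2 (27344 counts) and 5582 CPM in replicate 1 (15431 counts), a mean of 6256 ± 952 CPM (SD, n = 2). It ranked 40th of all miRNA genes by mean level, 35th in replicate 2 and 44th in replicate 1.

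Both other genes of the cluster were rare, although they are annotated in the same intron and on the same strand. Mir449c had 28.4 CPM in replicate 2 (112 counts) and 11.6 CPM in replicate 1 (32 counts), a mean of 19.98 ± 11.9 CPM (SD, n = 2). Mir449b had 12.9 CPM in replicate 2 (51 counts) and 7.60 CPM in replicate 1 (21 counts), a mean of 10.3 ± 3.77 CPM (SD, n = 2). Mir449a therefore made up 99.4% of the cluster counts in replicate 2 (99.3% to 99.5%) and 99.7% in replicate 1 (99.6% to 99.7%). The ratio of Mir449a to Mir449b, its neighbour at 35 bases, was 536 in replicate 2 (interval 408 to 720) and 735 in replicate 1 (481 to 1187). Its ratio to Mir449c was 244 in replicate 2 (203 to 297) and 482 in replicate 1 (341 to 705). The lead of Mir449a was thus far larger than the spread between the libraries, while the size of the ratio to Mir449c differed between them.

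The pair on chromosome 9 was also uneven, with Mir34c far above Mir34b. Mir34c had 1506 CPM in replicate 2 (5943 counts) and 1368 CPM in replicate 1 (3781 counts), and ranked 89th. Mir34b had 55.5 CPM in replicate 2 (219 counts) and 44.9 CPM in replicate 1 (124 counts), and ranked 258th. Mir34c exceeded Mir34b by 27.1-fold in replicate 2 (23.7 to 31.2) and by 30.5-fold in replicate 1 (25.5 to 36.8). These intervals overlap, and a difference of this imbalance between the libraries was not tested. Mir34c made up 96.4% of the pair in replicate 2 and 96.8% in replicate 1.

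Mir34a, the member best known as a p53 target, was low. It had 76.0 CPM in replicate 2 (300 counts) and 81.0 CPM in replicate 1 (224 counts), a mean of 78.5 ± 3.55 CPM (SD, n = 2), and ranked 239th. It nevertheless stood above Mir34b in both libraries, by 1.37-fold in replicate 2 (1.15 to 1.64) and 1.81-fold in replicate 1 (1.44 to 2.27).

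**Figure D2:**
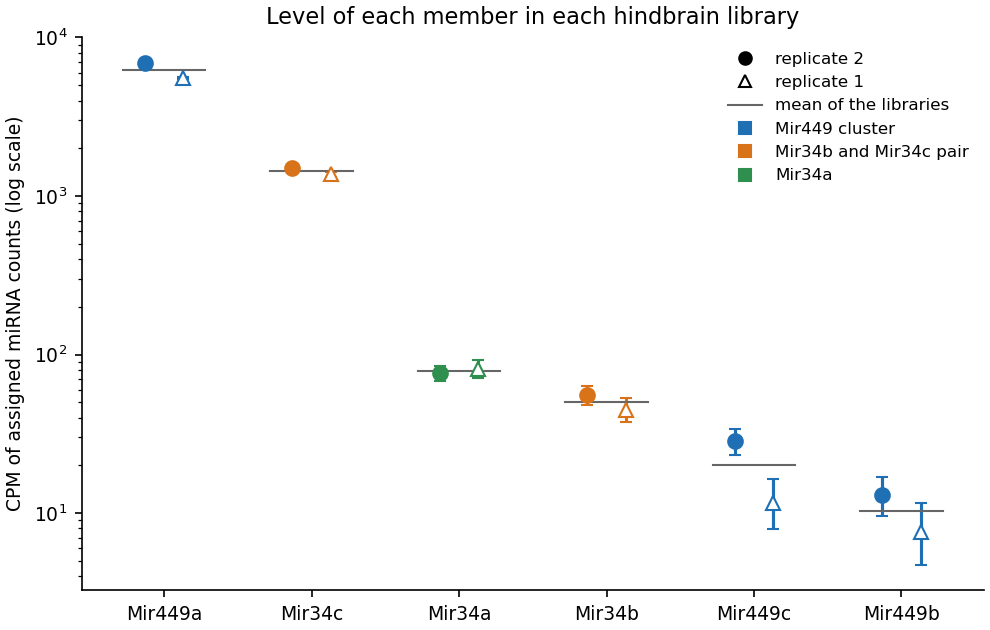
CPM of each member (log axis) in replicate 2 (filled circles) and replicate 1 (open triangles), with exact Poisson 95% intervals as bars and the mean of both libraries as a grey line. Mir449a and Mir34c lie above 1000 CPM in both libraries, while the other 4 members lie below 100 CPM.

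Between loci, the Mir449 cluster exceeded the Mir34b and Mir34c pair by 4.46-fold in replicate 2 (4.34 to 4.59) and 3.97-fold in replicate 1 (3.83 to 4.11). The pair in turn exceeded Mir34a by 20.5-fold in replicate 2 (18.3 to 23.1) and 17.4-fold in replicate 1 (15.2 to 20.04). The summed levels were 6286 ± 968 CPM for the cluster, 1487 ± 105 CPM for the pair and 78.5 ± 3.55 CPM for Mir34a (SD, n = 2 each). This order of the loci was the same in both libraries, and their ranges did not overlap. With 2 libraries an exact two-sided sign-flip test gives a p of at least 0.5, so the order was not tested.

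From high to low, the members ran Mir449a, Mir34c, Mir34a, Mir34b, Mir449c and Mir449b in both libraries. The ranges over the libraries were apart for every neighbouring pair in this order except Mir449c (11.6 to 28.4 CPM) and Mir449b (7.60 to 12.9 CPM). Mir449c exceeded Mir449b by 2.20-fold in replicate 2 (1.56 to 3.12), whereas in replicate 1 the ratio of 1.52 had an interval that includes 1 (0.852 to 2.78). Ligation preferences of small RNA libraries differ between sequences, and their part in the ratios between members was not tested.

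No member shared an identical run of 20 bases with another miRNA hairpin of GENCODE M21, against 923 of the 1973 genes that did. Among the 393 genes that averaged 10 or more counts, 90 did. IDs without an entry in GENCODE M21 had no sequence to search and count as not sharing. Each of the 9 listed mature sequences stood in a single hairpin of the RefSeq table. Reads that match several genomic positions are not in the deposited counts, and the rest of the genome was not searched for copies. Strand made little difference too. Only Mir34b had reads on the opposite strand, 1 in replicate 2 and 3 in replicate 1.

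By level, Mir449a stood among abundant miRNAs of other families. The genes directly above it were Mir183 and, with 6775 CPM in replicate 2 and 6126 CPM in replicate 1, Mir369. Those directly below were Mir21a (6630 and 5821 CPM) and Mir296 (5681 and 6760 CPM). Each differed from Mir449a by at most 0.0508 in mean log2(CPM + 1) over the 2 libraries, and each had a range that overlapped that of Mir449a, so their order is not settled. Mir34c stood between Mir101b and Mir153 above it and Mir134 and Mir205 below it. These lay within 0.0756 of it on the same scale, with ranges that again overlapped. Of the 105 genes at 1000 CPM or more, 2 were members.

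**Figure D3:**
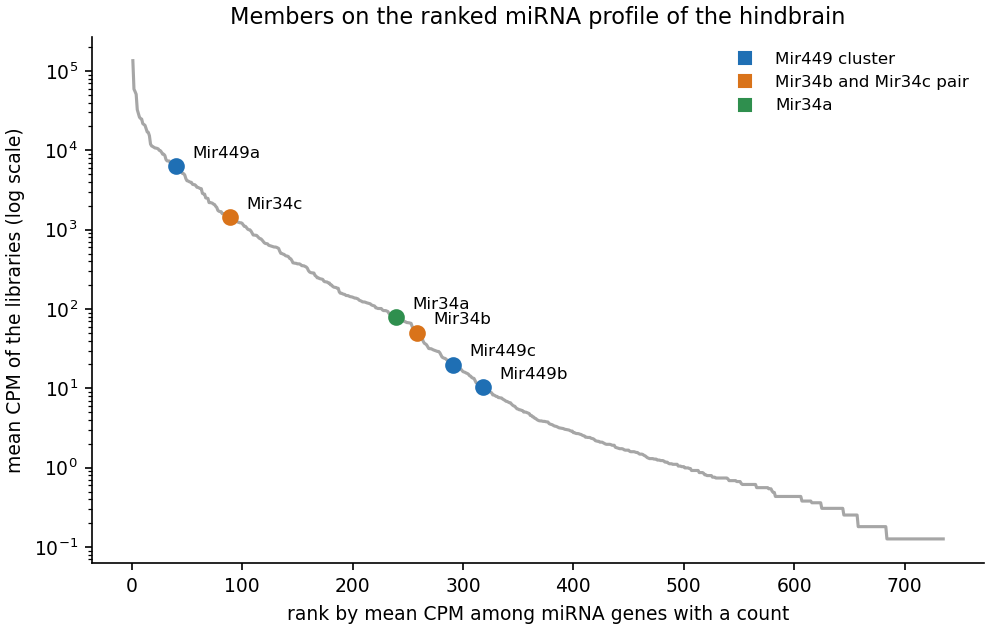
Mean CPM over both libraries (log axis) against rank for all miRNA genes with a count (grey line), with the members as coloured points. Mir449a lies at rank 40 and Mir34c at rank 89, while Mir34a, Mir34b, Mir449c and Mir449b lie between ranks 239 and 318.

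Of the members, 5 were higher and 1 was lower in replicate 2 than in replicate 1, and Mir449c differed most. Of all 393 genes tested, 185 were higher in replicate 2. The counts of each gene in the 2 libraries were compared by an exact binomial test (two-sided), with Benjamini-Hochberg adjustment over all 393 genes that averaged 10 or more counts. A call needed a 2-fold difference or more and an adjusted p below 0.05. The test compares the reads of these libraries, not conditions. Of the 6 members 1 was called, Mir449c, which was 2.45-fold higher in replicate 2 with an adjusted exact p of 7.5e-06. Over all genes tested, 3.56% were called, and 2.29% were called as higher in replicate 2. With 1 called member of 6, nothing is read from the members' share.

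Without the minimum fold, 3 of the 6 members passed, against 51.7% of all genes tested. Beside Mir449c these were Mir449a, 1.24-fold higher in replicate 2, and Mir34c, 1.10-fold higher. Their adjusted exact p-values were 7.08e-103 and 1.07e-05, small because the counts are large and the test allows for counting noise alone. Mir449b (1.70-fold, adjusted exact p = 0.0764), Mir34b (1.24-fold, 0.110) and Mir34a (0.938-fold, 0.583) did not pass.

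Set against the usual spread between the libraries, Mir449c lay furthest out of the members. The coefficient of variation beyond counting noise was 17.4%, from the common dispersion of edgeR. With the counting error of each gene this gives an expected SD of the log2 ratio, and the log2 ratio of Mir449a (0.31) was 0.876 of its expected SD. For Mir34c (0.14), Mir34b (0.30), Mir449b (0.75) and Mir34a (-0.09) the ratio lay within 1.45 expected SDs as well. That of Mir449c (1.28) was 2.79 expected SDs, and 17 of the 393 genes (4.33%) lay beyond 2. The dispersion was fitted to these same genes, Mir449c included, so the expected SDs describe the spread and do not test a difference. The median log2 ratio was 0.31 over the members and -0.04 over all genes tested.

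**Figure D4:**
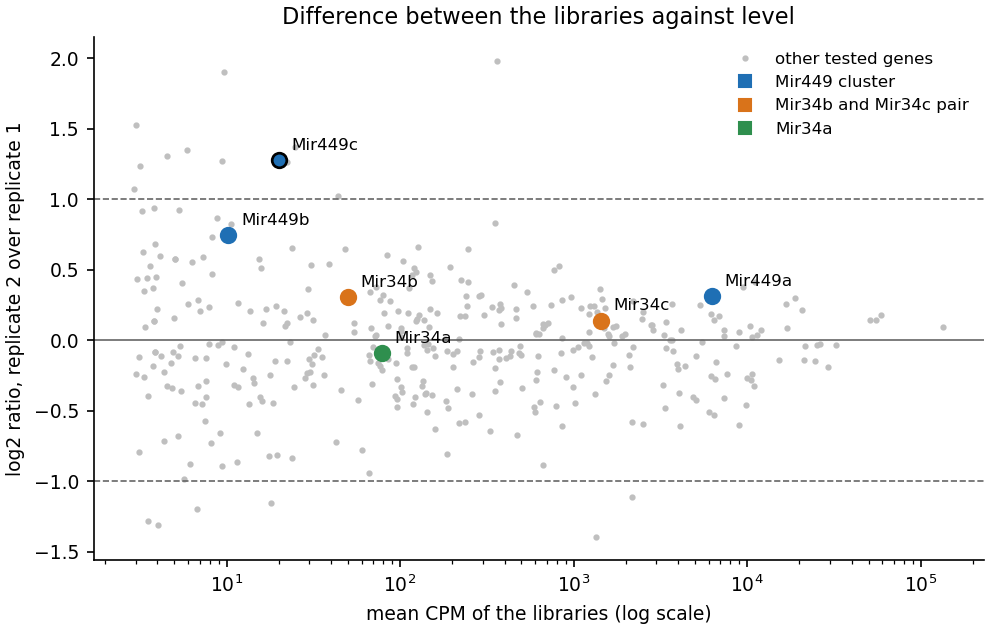
Log2 ratio of replicate 2 over replicate 1 against mean CPM (log axis) for all 393 tested genes (grey) and the members (coloured), with dashed lines at 2-fold and a black rim on called members. Mir449c, at a log2 ratio of 1.28, is the member beyond 2-fold, and Mir449a and Mir34c lie at 0.31 and 0.14.

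Lists of miRNAs tied to the family's tissues and regulators were set beside it. All 8 cilium-linked genes, 6 of them members, were detected, against 18.8% of all genes. Mir449c was the only 1 called, against 3.56% of all genes tested, so for the members this list repeats the results above. The non-members of that list, named after their values were seen, are the copies of miR-129, which in vertebrate cells represses Ccp110 too. Mir129-2 had 46.4 CPM in replicate 2 and 31.8 CPM in replicate 1. Mir129-1 had 33.2 and 25.7 CPM in the same libraries. Both were thus lower than Mir34a and higher than Mir449c in each library, and both share sequence with another hairpin, so reads that match both places are not in their counts. Of 10 p53-linked genes, 3 of them members, 8 were detected and none was called. The highest of these were Mir143 (10663 CPM in replicate 2 and 8223 CPM in replicate 1), a smooth muscle miRNA, and Mir107 (1592 and 1547 CPM). Mir107 and some others of this list, detected or not, also share sequence with another hairpin, with the same limit on their counts.

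MiRNAs of the choroid plexus, other epithelia and sensory organs were set beside the family as markers of cells that the dissection could hold. Over all 393 genes tested, 14 were called (3.56%), 5 of them lower in replicate 2. The 2 choroid plexus miRNAs held 0.162% of the counts in replicate 2 and 0.159% in replicate 1, and neither was called. Nearly all of this was Mir204 (1604 and 1572 CPM), while Mir211 had 18.2 and 15.6 CPM. The 7 miRNAs of epithelium held 0.647% in replicate 2 and 0.966% in replicate 1, and 2 were called, both lower in replicate 2. These were Mir429 (1362 against 2950 CPM) and, named after its values were seen, Mir200c (746 against 1959 CPM). The highest of the list, Mir203, had 2155 CPM in replicate 2 and 2230 CPM in replicate 1. Mir205 was 1.15-fold higher in replicate 2 (1459 against 1271 CPM, adjusted exact p = 4.4e-10) without reaching 2-fold, and Mir200a had 143 against 146 CPM. Mir200b (468 against 866 CPM) and Mir141 (136 against 238 CPM) were lower in replicate 2, each by less than 2-fold, and these and Mir200a were named after their values were seen. The sensory organ cluster held 1.70% in replicate 2 and 2.21% in replicate 1, with none of 3 called, and Mir182 and Mir183 led it with 9776 and 5253 CPM in replicate 2 against 11541 and 7585 CPM in replicate 1. None of these markers was at 0, and the part of such cells in the levels of the family was not tested.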

How the data were processed

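Small RNA of 2 hindbrain libraries was measured. The deposited tables hold raw read counts per miRNA gene, made by the authors from alignments to mm10 with GENCODE M4, per the deposited text files. Aligner and trimming were not given in the sources used here. Columns have no header, and the column read as the gene's own strand, which held 97.7% (replicate 2) and 97.6% (replicate 1) of assigned reads, was used. Rows naming no gene were left out; reads matching several positions were 33.4% and 32.7% of 8656439 and 5947846 reads. Symbols came from GENCODE M21 on GRCm38 for 1894 of 1973 IDs.

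CPM, exact Poisson and Clopper-Pearson intervals, ratios and the exact binomial test across all genes were computed with Python 3.11.15, SciPy 1.17.1 and pandas 2.3.3. Dispersion and scaling came from edgeR 4.0.16 (TMM) and DESeq2 1.42.0 size factors in R 4.3.3. In log2 ratios and for calls, 0.5 was added to each count, while printed folds are plain CPM ratios. The test was checked on simulated counts that had counting noise only, so the check does not cover the spread beyond it. The members and lists were chosen with earlier results of these data known. Named genes are the members, the 2 genes on each side of Mir449a and of Mir34c in mean CPM, and up to 2 leading genes of each list. Mir10a, Mir129-1, Mir129-2 and Mir200a, Mir200b, Mir200c and Mir141 fall outside this rule and were named after their values were seen. The labels call the libraries biological replicates, but no label says that the pools came from separate parents.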

Additional observations from a re-analysis of the deposited data

How the results depend on the processing

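Each scaling divides all genes of a library by the same total, so it can move levels but cannot change their order within a library. With TMM and DESeq2 scaling the Mir449 cluster averaged 6284 and 6294 CPM, against 6286 CPM. With the most abundant gene left out of the total, the Mir449 cluster averaged 7269 CPM, the Mir34b and Mir34c pair 1719 CPM and Mir34a 90.7 CPM. With genes that share a run of 20 bases left out of the total, the pair averaged 1616 CPM and Mir34a 85.4 CPM. With 2 libraries, leaving out a replicate gives back the value of the other library, so it adds no further check. These values were 5601 to 6970 CPM for the cluster, 1413 to 1561 CPM for the pair and 76.0 to 81.0 CPM for Mir34a. The ratio of cluster to pair was 3.97 to 4.46, and that of pair to Mir34a was 17.4 to 20.5. With a mean of at least 100 counts, 4 of 275 tested genes were called between the libraries, against 14 of 393 in the main setting. Mir449b and Mir449c were no longer tested there. Without a minimum fold, 203 of 393 were called. Under the other counts, strands, pseudocounts and scalings tried, the number called was 13 to 19, of 393 to 657 genes tested. Mir449c was the called member in each. At 100 counts in both libraries, 4 of the 6 members were detected, and the share of all genes at this threshold was not computed. No log2 difference of a member changed sign. No paired analysis was possible because there is a single group. Depth limits Mir449b and Mir449c most, at 21 and 32 counts in replicate 1.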
